A study of Mus musculus with 15 samples.

Results

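The 9 genes described here encode C-type lectin receptors of myeloid cells and were taken by symbol from the 38924 genes of the deposited tables. They are *Clec4d*, *Clec4e*, *Clec4n*, *Clec4b1*, *Clec4a1*, *Clec4a2* and *Clec4a3*, which lie in 1 stretch of chromosome 6, and *Clec12a* and *Clec5a* elsewhere on that chromosome. All 9 were found, and each reached at least 1 cpm (counts of a gene per 1000000 counts of its library) in at least 2 libraries, as did 14967 genes in all. That filter used unscaled totals, while the cpm values given below have totals scaled between libraries. *Clec4b1* passed that filter through CD45hi libraries alone.

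Brain myeloid cells positive for CD11b were sorted by FACS from male wild type C57BL/6J mice aged 12 months, and CD3e-positive T cells were gated away. The sort parted them into a fraction with high surface CD45 (CD45hi), where cells from the blood and activated microglia are expected to collect, and a fraction with low CD45 (CD45lo), mostly microglia. The mice had been kept on a control chow (CD) or had eaten a western diet (WD) from 2 months of age, with no other treatment or allele in any group. Poly(A) RNA-seq covered 4 CD45hi and 4 CD45lo libraries of CD-fed mice, and 3 CD45hi and 4 CD45lo libraries of WD-fed mice. Summed expected counts of a library ran from 11951412 to 17912272, and 14072 to 15477 genes had any count of 1 or more in CD45hi libraries, against 16004 to 17864 in CD45lo libraries. The limit that a count of 0 allows, 3 counts, came to 0.156 to 0.282 cpm and covers counting error only.

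C-type lectin receptors are surface proteins that bind sugars, lipids or crystals released by microbes and by dying cells. Mincle (*Clec4e*), MCL (*Clec4d*), Dectin-2 (*Clec4n*) and DCAR (*Clec4b1*) have short tails and signal through the adaptor FcRγ (*Fcer1g*), the kinase SYK and the CARD9 complex, which turns on cytokine genes. DCIR (*Clec4a2*) and MICL (*Clec12a*) instead carry an inhibitory motif that recruits phosphatases, while MDL-1 (*Clec5a*) signals through the adaptor DAP12 (*Tyrobp*). Most of these receptors are known from monocytes, neutrophils, macrophages and dendritic cells.

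The 7 *Clec4* genes fall within 368.0 kb of chromosome 6 in mm10, a stretch with 9 protein-coding genes. From the low to the high coordinate, *Clec4a1* (ENSMUSG00000049037) spans 122921848 to 122934619 and *Clec4a3* (ENSMUSG00000043832) 122952515 to 122969875. *Clec4b1* (ENSMUSG00000030147) spans 123049962 to 123071555 and *Clec4a2* (ENSMUSG00000030148) 123106428 to 123143999. *Clec4n* (ENSMUSG00000023349) spans 123229843 to 123247021, *Clec4d* (ENSMUSG00000030144) 123262111 to 123275265, and *Clec4e* (ENSMUSG00000030142), which alone among the 7 is on the reverse strand, 123281789 to 123289870. The other 2 genes of the stretch, *Clec4a4* and *Clec4b2*, did not pass the filter on low counts. *Clec12a* (ENSMUSG00000053063) spans 129342691 to 129365303 on the forward strand, and *Clec5a* (ENSMUSG00000029915) 40574894 to 40585821 on the reverse strand.

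The bases before the RefSeq start (GRCm38.p6) are shown for the neighbours *Clec4d* and *Clec4e* and for *Clec12a*, whose RefSeq start lies inside the GENCODE gene, which were all far higher in CD45hi than in CD45lo cells, and for *Clec5a*, which was not. Each is 250 bases, read 5′ to 3′ on the gene's own strand, and capitals mark the letters of the C/EBP motif described after them.
Clec4d, chr6:123261857-123262106, forward strand: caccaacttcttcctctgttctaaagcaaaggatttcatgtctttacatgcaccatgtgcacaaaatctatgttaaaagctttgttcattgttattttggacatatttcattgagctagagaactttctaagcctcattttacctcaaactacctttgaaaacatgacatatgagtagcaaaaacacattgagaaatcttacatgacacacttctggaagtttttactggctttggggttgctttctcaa
Clec4e, chr6:123289872-123290121, reverse strand: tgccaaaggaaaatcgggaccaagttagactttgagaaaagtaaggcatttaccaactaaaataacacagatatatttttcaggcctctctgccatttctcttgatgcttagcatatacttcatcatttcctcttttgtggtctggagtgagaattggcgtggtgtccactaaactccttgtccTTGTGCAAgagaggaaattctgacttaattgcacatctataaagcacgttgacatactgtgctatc
Clec12a, chr6:129349994-129350243, forward strand: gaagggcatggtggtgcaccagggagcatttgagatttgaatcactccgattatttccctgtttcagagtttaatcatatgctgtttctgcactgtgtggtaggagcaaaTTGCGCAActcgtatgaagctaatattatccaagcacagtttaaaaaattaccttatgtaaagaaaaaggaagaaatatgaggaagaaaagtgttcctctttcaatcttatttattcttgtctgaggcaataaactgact
Clec5a, chr6:40585806-40586055, reverse strand: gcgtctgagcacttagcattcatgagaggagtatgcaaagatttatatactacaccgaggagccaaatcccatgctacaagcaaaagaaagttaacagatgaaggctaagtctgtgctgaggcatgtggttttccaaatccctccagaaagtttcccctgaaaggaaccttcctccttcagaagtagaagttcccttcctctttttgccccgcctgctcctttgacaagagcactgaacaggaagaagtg
Promoter windows of 300 bases, reaching 250 bases before the start, were held for 8 of the 9 genes, all but *Clec4n*. They were searched on both strands for a PU.1 core (GAGGAAGT) and a C/EBP motif (TTGCNNAA), factors of myeloid and granulocytic cells, and these 2 motifs overlapped nowhere in them. The C/EBP letters were found in 2 of the 8 genes, *Clec4e* (66 bases before the start, on the strand opposite to the gene) and *Clec12a* (140 bases before), and stood in 10.8% of all 32851 windows of that length. The PU.1 letters were found in 0 of the 8, and in 3.20% of all windows. A match of letters is a description and not a site of binding.

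CD45hi and CD45lo cells were compared within each diet, to ask which genes set the fractions apart. In CD-fed mice 5 of the 9 lectin genes rose in CD45hi cells (*Clec4d*, *Clec4e*, *Clec4n*, *Clec4a1* and *Clec12a*) and 0 fell, where 3.98% of all 14967 genes tested were called by edgeR's glmTreat at 1.5-fold with an FDR under 0.05 (3.39% as higher, 0.588% as lower). On the WD the same 5 rose and 0 fell, beside 5.18% of all genes called, 4.01% higher and 1.17% lower. *Clec4b1* was called higher there too, but it was let through the filter by CD45hi cells alone, which favours such a difference. Without it the counts were 5 of 8 on each diet. With the 1.5-fold limit set on the estimate after glmQLFTest, *Clec4a3* was called on the WD as well. *Clec4a2*, *Clec4a3* and *Clec5a* were not called on either diet. The median log2 fold change of the 8 was 3.62 in CD-fed and 4.00 in WD-fed mice, against 0.04 and 0 over all genes tested. In sorted bulk samples more cells of a type and more RNA per cell cannot be told apart.

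**Figure D1:**
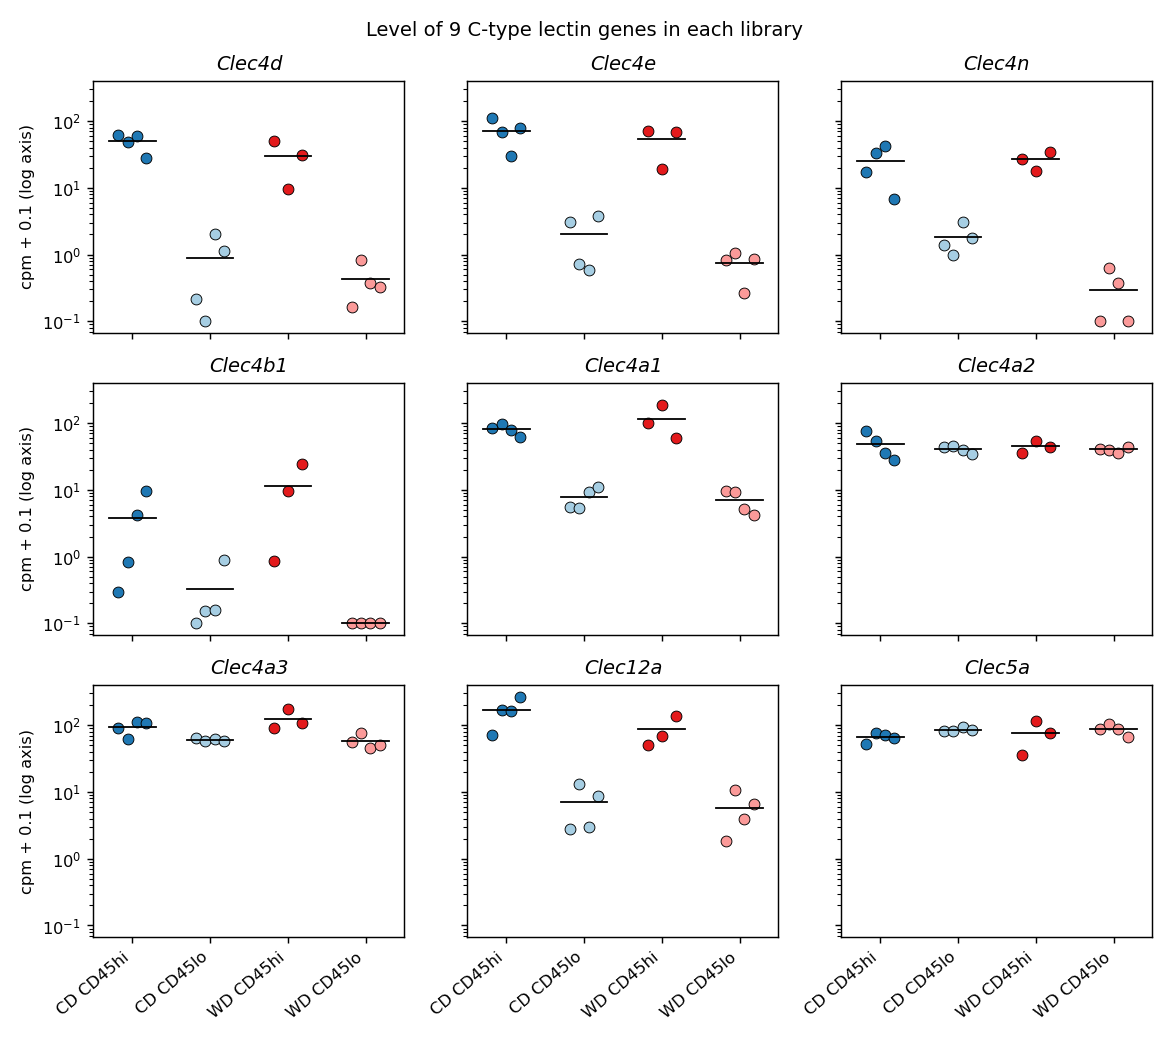
Level of each of the 9 genes in the 15 libraries, as cpm + 0.1 on a log axis. Each point is a library, grouped by diet and CD45 level, and each line is a group mean; *Clec4d*, *Clec4e*, *Clec4n*, *Clec4a1* and *Clec12a* have all CD45hi points above all CD45lo points on both diets, while the points of *Clec4a2* overlap.

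Markers of several cell types moved with the CD45 level. Markers that passed the filter with the help of CD45hi libraries were not set apart in the counts below, which favours a rise. Among markers of classical monocytes (such as *Ccr2* and *F13a1*), 5 of 8 rose in CD45hi cells of CD-fed mice and 4 of 8 in WD-fed mice, and their summed level was 619 to 1353 cpm in CD CD45hi, 698 to 1063 in WD CD45hi, 95.1 to 214 in CD CD45lo and 64.6 to 214 in WD CD45lo libraries. Of the patrolling monocyte markers 5 of 7 rose in CD-fed and 6 of 7 in WD-fed mice, with sums of 284 to 493 and 448 to 807 cpm in CD45hi and at most 55.0 cpm in CD45lo libraries. Neutrophil markers rose in 7 of 12 on each diet, summing to 1788 to 4394 cpm in CD CD45hi, 1495 to 2645 in WD CD45hi, 655 to 1387 in CD CD45lo and 761 to 975 in WD CD45lo libraries.

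Border-associated macrophage markers (such as *Cd163* and *Pf4*) rose in 6 of 7 on each diet, with sums of 543 to 1273 cpm over the 7 CD45hi and 271 to 395 over the 8 CD45lo libraries. Of 9 microglial markers (such as *P2ry12*), 9 fell in CD45hi cells of CD-fed and 6 in WD-fed mice, and their sum was 6146 to 7428 cpm in CD45hi against 12979 to 16784 in CD45lo libraries. Dendritic cell markers rose in 0 of 5 on either diet. Their sums were 38.7 to 84.8 cpm in CD CD45hi and 22.5 to 27.4 in CD CD45lo libraries, which did not overlap. In WD-fed mice they were 19.2 to 84.7 cpm in CD45hi and 20.99 to 34.9 in CD45lo libraries. Of 7 lymphocyte markers tested, 0 rose in CD-fed and 2 in WD-fed mice. The summed level of the list was 18.5 to 67.6 cpm in CD CD45hi and 6.95 to 13.2 in CD CD45lo libraries. On the WD it was 33.3 to 146 cpm in CD45hi and 3.71 to 9.70 in CD45lo libraries. Of the 9 genes listed, 6 were at 0 in all WD CD45lo libraries, and *Cd3e* was at 0 in all WD libraries. The list of other brain cells summed to 7.58 to 16.1 cpm in WD CD45hi libraries and to at most 5.91 cpm in libraries of the other groups. The part of these cells in the lectin values was not tested.

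The FcRγ-coupled receptors of the cluster were expressed in CD45hi cells and were at a few cpm or less in CD45lo cells. *Clec4d* encodes MCL, which binds mycobacterial glycolipid and pairs with Mincle. In CD-fed mice it stood at 61.2, 48.0, 60.6 and 27.9 cpm in CD45hi libraries and at 0.118, 0, 1.97 and 1.02 cpm in CD45lo libraries. In WD-fed mice the values were 50.3, 9.59 and 30.6 cpm in CD45hi and 0.0656, 0.742, 0.275 and 0.227 cpm in CD45lo libraries. The groups did not overlap, and the gene was at or below 3 counts in 4 of the 8 CD45lo libraries. The log2 fold change was 5.99 in CD-fed (SE 1.01, FDR = 0.00146) and 6.51 in WD-fed mice (SE 1.08, FDR = 0.00120). Without CD CD45lo replicate 3 the first was 7.0, and without WD CD45lo replicate 2 the second was 7.24.

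*Clec4e*, the neighbour of *Clec4d*, encodes Mincle, a receptor for trehalose dimycolate and for a protein let out by dying cells. It stood at 111, 68.3, 29.4 and 78.6 cpm in CD CD45hi and at 3.00, 0.623, 0.492 and 3.69 cpm in CD CD45lo libraries. The WD-fed mice gave 71.6, 19.3 and 69.1 cpm in CD45hi and 0.721, 0.965, 0.165 and 0.758 cpm in CD45lo libraries. Every CD45hi library was above every CD45lo library on each diet, and the lowest WD CD45hi library was replicate 2, as for *Clec4d*. The log2 fold change was 5.20 (SE 0.739, FDR = 0.000326) in CD-fed and 6.36 (SE 0.810, FDR = 0.000106) in WD-fed mice.

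*Clec4n* encodes Dectin-2, which recognises mannans of fungi. Its CD45hi values in CD-fed mice were 17.2, 33.3, 42.0 and 6.76 cpm, and its CD45lo values 1.29, 0.882, 3.01 and 1.65 cpm. In WD-fed mice it was at 27.0, 18.05 and 34.5 cpm in CD45hi libraries and at 0, 0.519, 0.275 and 0 cpm in CD45lo libraries. Groups did not overlap on either diet, and replicate 4 of CD CD45hi, at 6.76 cpm, came nearest to the CD45lo libraries. The log2 fold change was 3.85 in CD-fed mice (SE 0.838, FDR = 0.0139), and without CD CD45lo replicate 1, 2 or 4 it was no longer called (FDR = 0.0585, 0.0629 and 0.0524). In WD-fed mice it was 7.0 (SE 1.01, FDR = 0.000363), and 7.93 without WD CD45lo replicate 2.

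*Clec4b1*, which encodes DCAR, had the lowest mean level per length of the 9 in each group, and ranged widely among CD45hi libraries. Its CD45hi values were 0.197, 0.745, 4.13 and 9.59 cpm in CD-fed and 0.752, 9.39 and 24.0 cpm in WD-fed mice. In CD45lo cells it was at 0, 0.0519, 0.0615 and 0.794 cpm in CD-fed mice and at 0 in all 4 libraries of WD-fed mice. The CD groups overlapped and their difference was not called (log2 fold change 3.96, SE 1.53, FDR = 0.230). In WD-fed mice CD45hi cells were at least 50.1-fold higher, taking 3 counts in the shallowest CD45lo library as the limit, and the difference was called (FDR = 0.0122). Without WD CD45hi replicate 3, the highest library, that limit was 22.3-fold.

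The DCIR group of the cluster did not behave alike. *Clec4a1* encodes a DCIR-like receptor and was higher in CD45hi cells on both diets. It stood at 84.6, 97.5, 77.6 and 62.9 cpm in CD CD45hi and 5.41, 5.29, 9.28 and 10.8 cpm in CD CD45lo libraries. In WD-fed mice it was at 102, 186 and 60.7 cpm in CD45hi and 9.57, 9.35, 5.05 and 4.09 cpm in CD45lo libraries. Groups were far apart on both diets, with log2 fold changes of 3.39 (SE 0.409, FDR = 9.79e-05) in CD-fed and 4.05 (SE 0.433, FDR = 2.23e-05) in WD-fed mice, the lowest FDR of the 9 genes in each.

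*Clec4a2* encodes DCIR itself, an inhibitory receptor. Its values in CD-fed mice were 76.1, 54.4, 35.9 and 28.2 cpm in CD45hi and 43.1, 44.7, 39.8 and 34.1 cpm in CD45lo libraries. In WD-fed mice they were 35.8, 53.7 and 44.5 cpm in CD45hi and 40.98, 39.8, 35.6 and 44.3 cpm in CD45lo libraries. The groups overlapped on both diets, and the log2 fold change was 0.27 (SE 0.297, FDR = 1.0) and 0.15 (SE 0.320, FDR = 0.977). Its direction also turned with the scale, since the CD45hi mean was 0.763 times the CD45lo mean in CD-fed mice when given per length in TPM. Its expected count was not whole in 12 of 15 libraries, against 3 for *Clec4b1*, 5 for *Clec12a* and 0 for the other 6 genes, as RSEM gives where reads match more than 1 place, and a pseudogene (*Gm44132*) overlaps it on the same strand.

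*Clec4a3*, another DCIR-like gene, was well expressed in both fractions. It stood at 89.5, 62.8, 112 and 107 cpm in CD CD45hi and 63.4, 57.7, 62.4 and 58.7 cpm in CD CD45lo libraries. The WD-fed mice gave 90.0, 174 and 109 cpm in CD45hi and 55.9, 77.3, 45.3 and 50.2 cpm in CD45lo libraries, which did not overlap. The log2 fold change was 0.61 (SE 0.250, FDR = 0.744) in CD-fed and 1.12 (SE 0.267, FDR = 0.106) in WD-fed mice, so neither passed the test against 1.5-fold. Tested for any change, with the 1.5-fold limit set on the estimate alone, the WD difference was called (glmQLFTest FDR = 0.0118), and it was also called without WD CD45hi replicate 1 (FDR = 0.0464).

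*Clec12a* encodes MICL, an inhibitory receptor of granulocytes and monocytes that binds uric acid crystals. Its CD45hi values in CD-fed mice were 72.2, 167, 166 and 268 cpm and its CD45lo values 2.71, 13.2, 2.89 and 8.68 cpm. In WD-fed mice it was at 51.2, 69.9 and 139 cpm in CD45hi and 1.77, 10.5, 3.84 and 6.44 cpm in CD45lo libraries. Groups did not overlap, and the log2 fold change was 4.61 (SE 0.643, FDR = 0.000299) in CD-fed and 3.94 (SE 0.645, FDR = 0.00137) in WD-fed mice.

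*Clec5a* encodes MDL-1, a DAP12-coupled receptor, and was the only gene of the 9 whose estimate was below 0 on both diets. It stood at 52.6, 75.3, 70.7 and 65.0 cpm in CD CD45hi and 81.8, 80.7, 94.3 and 83.2 cpm in CD CD45lo libraries, with no overlap. In WD-fed mice it was at 35.5, 114 and 76.4 cpm in CD45hi and 88.1, 104, 86.6 and 66.1 cpm in CD45lo libraries, which overlapped. The log2 fold change was -0.37 (SE 0.277, FDR = 0.973) and -0.19 (SE 0.300, FDR = 0.969), and the second turned to 0.15 without WD CD45hi replicate 1.

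By overlap of the libraries alone, 5 of the 9 genes were higher and 1 (*Clec5a*) lower in CD45hi cells of CD-fed mice without overlap, where 8.26% of all genes were higher and 8.22% lower in that way. In WD-fed mice 7 of the 9 were higher and 0 lower without overlap, beside 10% and 13.4% of all genes. *Clec4b1* is among these 7, and its passing the filter through CD45hi libraries alone favoured that outcome. By TPM the WD libraries of *Clec4a3* overlapped, and its ratio was 1.45 against 2.18 by cpm.

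**Figure D2:**
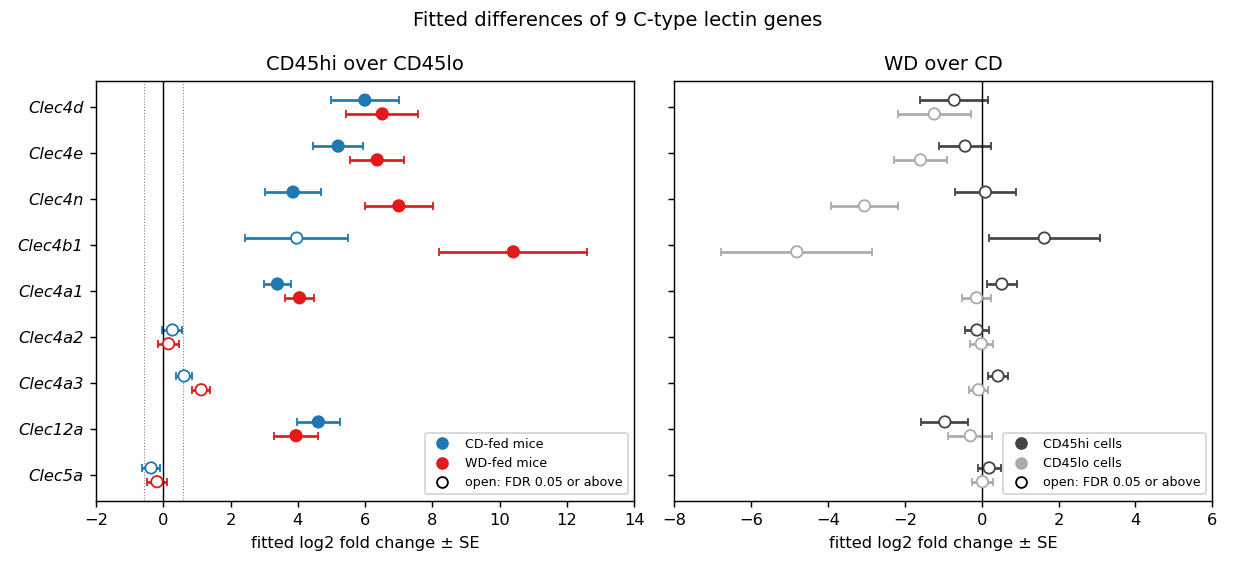
Fitted log2 fold change ± SE of the 9 genes, for CD45hi over CD45lo cells on each diet (left, dotted lines at 1.5-fold) and for WD over CD in each fraction (right). Filled points passed FDR 0.05 and open points did not; the CD45hi over CD45lo values of the called genes lie between 3.39 and 7.0 apart from *Clec4b1* in WD-fed mice, whose CD45lo libraries are all at 0 so that its point depends on the prior count, and all points on the right are open.

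To compare the genes with each other, the deposited TPM (a gene's share among 1000000 transcripts of a library, so a level per length) was used. In CD45hi cells of CD-fed mice the order was *Clec12a* (158 ± 62.7 TPM, SD, n = 4), *Clec4a3* (119 ± 25.1), *Clec4a1* (80.3 ± 19.0), *Clec4a2* (63.5 ± 23.9), *Clec4d* (58.6 ± 19.7), *Clec4e* (54.5 ± 45.9), *Clec5a* (34.0 ± 9.88), *Clec4n* (33.5 ± 22.3) and *Clec4b1* (8.44 ± 9.62). Each gene in this order overlapped its neighbour in the range over libraries. In CD45hi cells of WD-fed mice *Clec4a3* was first (143 ± 46.6 TPM, SD, n = 3) and *Clec12a* came after *Clec4a2* (66.1 ± 29.3), while *Clec4b1* was again last (25.9 ± 27.2).

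CD45lo cells held 3 of the receptors at a high level per length. These were *Clec4a3* (105 ± 7.43 TPM in CD-fed, SD, n = 4, and 98.4 ± 29.5 in WD-fed mice, n = 4), *Clec4a2* (83.2 ± 10.3 and 86.2 ± 7.56) and *Clec5a* (73.9 ± 4.88 and 70.9 ± 19.4). The next gene, *Clec4a1*, stood at 10.5 ± 4.04 and 9.71 ± 4.32 TPM, and its highest CD45lo library was at 15.2 TPM, below the lowest of those 3 genes at 43.2 TPM. *Clec12a* followed at 6.44 ± 4.69 and 8.86 ± 7.57 TPM, and the 4 FcRγ-coupled genes had group means of 0 to 3.34 TPM.

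Summed over the 9 genes, the level was 609.5 ± 20.4 TPM in CD CD45hi (SD, n = 4), 561 ± 66.4 in WD CD45hi (SD, n = 3), 287 ± 9.74 in CD CD45lo and 276 ± 47.3 in WD CD45lo libraries (SD, n = 4 each). The sums ran from 587 to 636 TPM over CD CD45hi and from 486 to 610 TPM over WD CD45hi libraries, all above the highest CD45lo library at 341 TPM. Within each of the 4 groups the genes kept their order when cpm per kilobase was used in place of TPM. Both scales divide by the same effective length, so this order could hardly change.

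**Figure D3:**
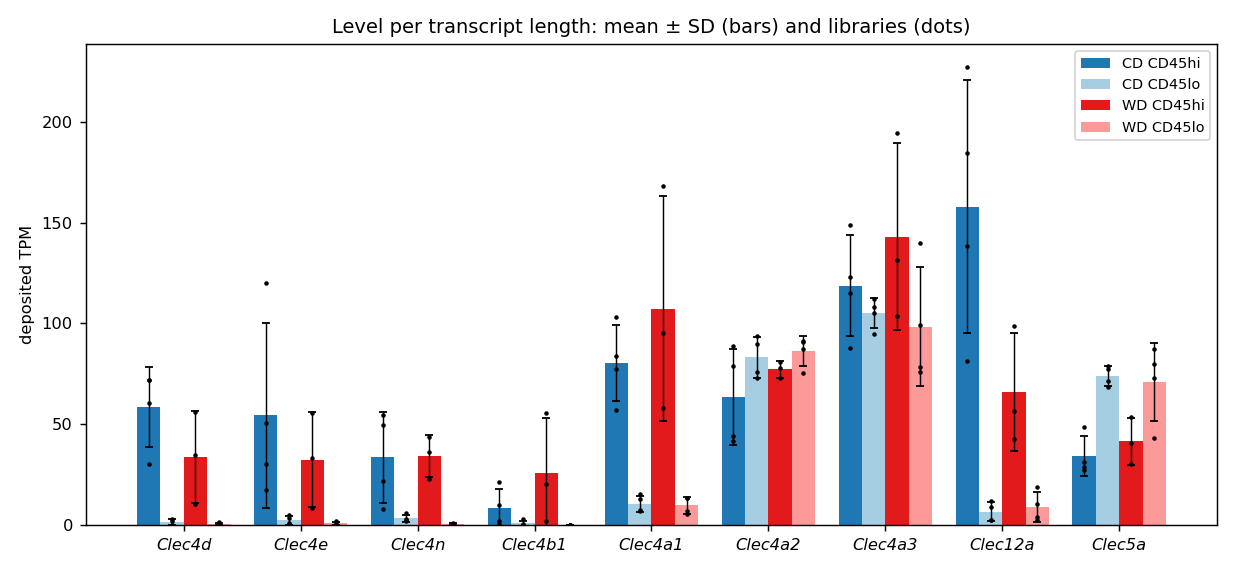
Deposited TPM of the 9 genes by group, as means (bars, from 0), SD (error bars) and single libraries (dots). *Clec4a2*, *Clec4a3* and *Clec5a* have CD45lo bars at 70.9 TPM or above, and the CD45lo bars of the other 6 genes are at 10.5 TPM or below.

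The scale mattered for the size of a difference. *Clec4a1*, whose effective length hardly varied, was 10.5-fold higher in CD CD45hi than in CD CD45lo cells by mean cpm and 7.63-fold by mean TPM. *Clec12a* in WD-fed mice was 15.3-fold higher by cpm and 7.46-fold by TPM, and its effective length was 1708 ± 463 bases in WD CD45hi (SD, n = 3) and 1502 ± 621 in WD CD45lo libraries (SD, n = 4). *Clec4e* in WD-fed mice was 81.8-fold higher by cpm and 44.7-fold by TPM. *Clec5a* in CD-fed mice was 0.775 times the CD45lo level by cpm and 0.460 times by TPM, with an effective length of 2838 ± 908 bases in CD45hi and 2173 ± 99.2 in CD45lo libraries (SD, n = 4 each). The directions of the called genes were the same on both scales.

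The diets were compared within each fraction, to ask whether the WD moved these receptors. In CD45hi cells 0 of the 9 genes were called (edgeR glmQLFTest), where 0.254% of all genes were (0.0601% higher and 0.194% lower), and their FDR ran from 0.430 to 0.971 with 0 at an unadjusted p under 0.05, as had 2628 of all 14967 genes. DESeq2 and limma-voom called 0 of the 9 as well, beside 1003 and 27 of all 14967 genes. The estimates went both ways, with 5 of 9 above 0 and a median of 0.10, against -0.02 over all genes. *Clec12a* averaged 168 ± 79.95 cpm on the CD (SD, n = 4) and 86.7 ± 46.2 on the WD (SD, n = 3), which gave -0.96 in log2 (SE 0.609, FDR = 0.437). *Clec4d* was at 49.4 ± 15.6 and 30.2 ± 20.4 cpm (-0.71, SE 0.880, FDR = 0.722), and *Clec4e* at 71.8 ± 33.5 and 53.3 ± 29.5 cpm (-0.43, SE 0.668, FDR = 0.787).

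Estimates above 0 in CD45hi cells were those of *Clec4b1*, *Clec4a1*, *Clec4a3*, *Clec5a* and *Clec4n*. *Clec4a1* went from 80.7 ± 14.4 to 116 ± 63.6 cpm (0.53, SE 0.398, FDR = 0.526), with 186 cpm in WD replicate 2 and 60.7 in WD replicate 3. *Clec4b1* went from 3.67 ± 4.32 to 11.4 ± 11.8 cpm (1.63, SE 1.44, FDR = 0.599). *Clec4n* was at 24.8 ± 15.8 and 26.5 ± 8.24 cpm (0.10, SE 0.801, FDR = 0.971). The libraries of both diets overlapped for all 9 genes, while 2.58% of all genes were higher and 3.19% lower on the WD without overlap. Neutrophil marker sums also overlapped between the diets in CD45hi cells, at 1788 to 4394 and 1495 to 2645 cpm, as did those of patrolling monocyte markers, at 284 to 493 and 448 to 807 cpm.

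In CD45lo cells 0 of the 9 genes and 0% of all genes were called between the diets (edgeR glmQLFTest), while 123 of all genes and 3 of the 9 had an unadjusted p under 0.05. DESeq2 called 4 of all genes and 0 of the 9. The 3 genes were FcRγ-coupled receptors at very low level. *Clec4n* lay below every CD library in those of the WD, without passing the test (-3.05 in log2, SE 0.881, FDR = 1.0), as 1.29% of all genes were, and 0 of the 9 were higher without overlap, beside 1.13% of all genes. *Clec4e* had a log2 fold change of -1.59 (SE 0.698, FDR = 1.0), and *Clec4b1*, above 3 counts in 1 of the 8 libraries, gets no fold change here. Their values in WD CD45lo libraries were at most 0.965 cpm, which is 13 counts or fewer.

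The interaction asked whether the difference of the fractions depended on the diet. It was called for 0 of the 9 genes and 0.00668% of all genes, with FDR from 0.399 to 0.970 for the 9 and an unadjusted p under 0.05 for *Clec4n* and *Clec4b1*, as for 1515 of all genes. For *Clec4n* the log2 fold change was 3.15 larger in WD-fed mice (SE 1.17, FDR = 0.399). *Clec4b1* was called on the WD and not on the CD, but this difference itself did not pass (FDR = 0.414). DESeq2 and limma-voom called 0 of the 9 for the interaction, beside 188 and 0 of all genes.

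The spread among the 7 CD45hi libraries was used to look at which receptors varied together. Over the 36 pairs of the 9 genes, 0 correlations of log2 cpm had an adjusted p under 0.05 and 0 an unadjusted one (exact permutation test of Pearson's r, two-sided, n = 7), the lowest adjusted p being 0.568, and 18 of the 36 were above 0. With Spearman's rho 0 pairs passed as well. Correlations with 4 marker lists, chosen after the data were seen, gave 0 of 36 with an adjusted p under 0.05 (lowest 0.791). For the neighbours *Clec4d* and *Clec4e* r was 0.599 and Spearman's rho 0.393 (exact permutation p = 0.162 and 0.396, adjusted p = 0.581 and 0.987, n = 7), and r was -0.143 without the 2 libraries farthest from the median of *Clec4d*. In single libraries the receptors parted ways, as WD CD45hi replicate 2 was the lowest of its group for *Clec4d*, *Clec4e* and *Clec4n* and the highest for *Clec4a1*, *Clec4a2*, *Clec4a3* and *Clec5a*.

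By the shape of the values over those 7 libraries, genes most like each receptor, at most 2 for each, were found among 8388 genes with a mean of at least 10 cpm in them (8389 for *Clec4b1*), so that such a search returns high values of r and they are a description only. *Clec4d* went with *Cdk11b* (r = 0.973) and *Ikzf5* (0.971), *Clec4e* with *Gm11206* (0.984), and *Clec4n* with *D15Ertd621e* (0.977) and *Dock6* (0.976). *Clec4b1* went with *Efr3a* (0.966) and *Eif1* (0.964). *Clec4a1* had *Idh2* (0.979) and *Spic* (0.977), *Clec4a2* had *Srpk2* (0.981) and *Tra2a* (0.972), and *Clec4a3* had *Ctsb* (0.970), a lysosomal protease, and *Sec22b* (0.946). *Clec12a* went with *Zfp553* (0.969), and *Clec5a* with *AU019823* (0.975) and *Atpif1* (0.974). None of the genes named here is another of the 9.

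Other C-type lectins were taken from a list of 37 genes, of which 25 passed the filter. Of these, 4 (*Cd209g*, *Cd69*, *Klrb1b* and *Klrb1c*) passed it with the help of CD45hi libraries, as fewer than 2 CD45lo libraries reached 1 cpm. Of the other 21, 8 rose in CD45hi cells of CD-fed and 10 of WD-fed mice, and 0 fell, where 3.39% and 4.01% of all genes were called higher. Their median log2 fold changes were 3.20 and 3.18. *Mrc1*, the mannose receptor of macrophages, was at 1351 cpm in CD CD45hi and 96.5 cpm in CD CD45lo cells on average, with a log2 fold change of 3.81 in CD-fed (SE 0.393, FDR = 1.73e-05) and 4.09 in WD-fed mice (SE 0.409, FDR = 1.19e-05). *Clec7a*, the β-glucan receptor Dectin-1, rose by a log2 fold change of 3.20 (SE 0.309, FDR = 1.07e-05) and 3.18 (SE 0.319, FDR = 1.75e-05). *Mgl2*, a galactose-type lectin of macrophages and dendritic cells, had 5.50 (SE 0.622, FDR = 3.41e-05) and 6.17 (SE 0.662, FDR = 1.87e-05), and *Cd209g*, a DC-SIGN relative, 4.82 (SE 0.814, FDR = 0.00162) and 7.56 (SE 0.946, FDR = 8.31e-05). Without CD CD45lo replicate 4 the CD value was 6.09 for *Mgl2* and 6.08 for *Cd209g*, and without WD CD45lo replicate 2 the WD value of *Mgl2* was 6.88.

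Of the natural killer cell lectins, *Klrb1c* (NK1.1) ran from 0 to 18.96 cpm in CD CD45hi and from 0.134 to 56.3 cpm in WD CD45hi libraries, and was at 0.0742 cpm or less in CD45lo libraries. *Klrb1b* ran from 6.86 to 52.98 and from 4.51 to 20.2 cpm in CD45hi and was at 0.353 cpm or less in CD45lo libraries. Both were called on each diet (FDR = 0.0209 and 0.0169 for *Klrb1c*, 0.00257 and 0.00406 for *Klrb1b*). They passed the filter through CD45hi libraries, however, which favours such a difference. *Klrb1c* was called on neither diet with the newer form of edgeR's test (FDR = 0.238 and 0.0697) or with limma-voom (FDR = 0.229 and 0.190), and *Klrb1b* not in WD-fed mice with the former (FDR = 0.0858). The call of *Klrb1c* was also lost in CD-fed mice without any 1 CD CD45lo library or WD CD45lo replicate 2 (FDR = 0.0527 to 0.0614), and in WD-fed mice without WD CD45hi replicate 3 or any 1 WD CD45lo library (FDR = 0.0544 to 0.0644). *Clec2d*, *Olr1* (the receptor of oxidised LDL) and *Cd209b* were called in WD-fed mice, with log2 fold changes of 2.10 (SE 0.391, FDR = 0.00876), 3.08 (SE 0.752, FDR = 0.0292) and 3.65 (SE 0.972, FDR = 0.0431). In CD-fed mice they had 1.5 (FDR = 0.0708), 1.33 (FDR = 0.530) and 1.90 (FDR = 0.397), and their interaction with diet was not called (FDR = 0.763, 0.581 and 0.692). *Clec2d* was called in CD-fed mice with the fold limit after glmQLFTest (FDR = 0.0158) and without WD CD45hi replicate 2 or 3 (FDR = 0.0441 and 0.0420). The call of *Olr1* was lost without WD CD45hi replicate 1 or 3 or WD CD45lo replicate 2, 3 or 4 (FDR = 0.0702 to 0.0934), with limma-voom (FDR = 0.247) and with the compared groups alone (FDR = 0.0596). That of *Cd209b* was lost without WD CD45hi replicate 1 or 2, WD CD45lo replicate 1, 2 or 4, or any 1 CD CD45lo library (FDR = 0.0556 to 0.132), and with the compared groups alone (FDR = 0.115). Its log2 fold change was 2.98 without WD CD45hi replicate 1 and 4.75 without WD CD45lo replicate 3.

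Most of the signalling genes that these receptors use were not called between the fractions. Of 18 adaptors, kinases and members of the CARD9 path, 1 rose on each diet, a share near the 3.39% and 4.01% of all genes called higher. It was *Fgr*, a Src-family kinase (log2 fold change 3.56, SE 0.486, FDR = 0.000306 in CD-fed and 3.55, SE 0.500, FDR = 0.000407 in WD-fed mice, and 2.91 in CD-fed mice without CD CD45hi replicate 4), and 0 fell. The adaptor *Fcer1g* had a log2 fold change of 0.52 on both diets (SE 0.181 and 0.194, FDR = 0.875 and 0.746). *Tyrobp* had 0.52 and 0.88 (SE 0.156 and 0.167, FDR = 0.895 and 0.141). Tested for any change, *Tyrobp* passed on both diets (glmQLFTest FDR = 0.0492 in CD-fed and 0.00226 in WD-fed mice), but only its WD estimate was over 1.5-fold. *Syk* (0.21 and 0.08) and *Card9* (0.71 and 0.18) were not called. The medians of the 18 were 0.20 and 0.19.

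The phosphatases that bind inhibitory motifs, 3 genes in all, were called in 0 cases on either diet. *Ptpn6* (SHP-1) had log2 fold changes of 0.03 in CD-fed and 0.32 in WD-fed mice, *Ptpn11* (SHP-2) 0.42 and 0.33, and *Inpp5d* (SHIP-1) -0.43 and -0.61. Tested for any change, *Inpp5d* passed in WD-fed mice (glmQLFTest FDR = 0.0101). Between the diets 0 of these 21 genes and 0 of the 25 other lectins were called in either fraction. With DESeq2, 1 of the 25 was called higher on the WD in CD45hi cells, where 411 of 14967 genes were. The newer form of edgeR's test called 1 of the 25 higher, *Cd209g* (log2 fold change 1.42, SE 0.347, FDR = 0.0404), beside 161 of all genes. Without WD CD45hi replicate 2, 1 of the 25 was called higher, beside 127 of all genes. Without replicate 3, 1 was called lower, beside 142 of all genes. *Cd209g* was called in the edgeR setting alone.

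**Figure D4:**
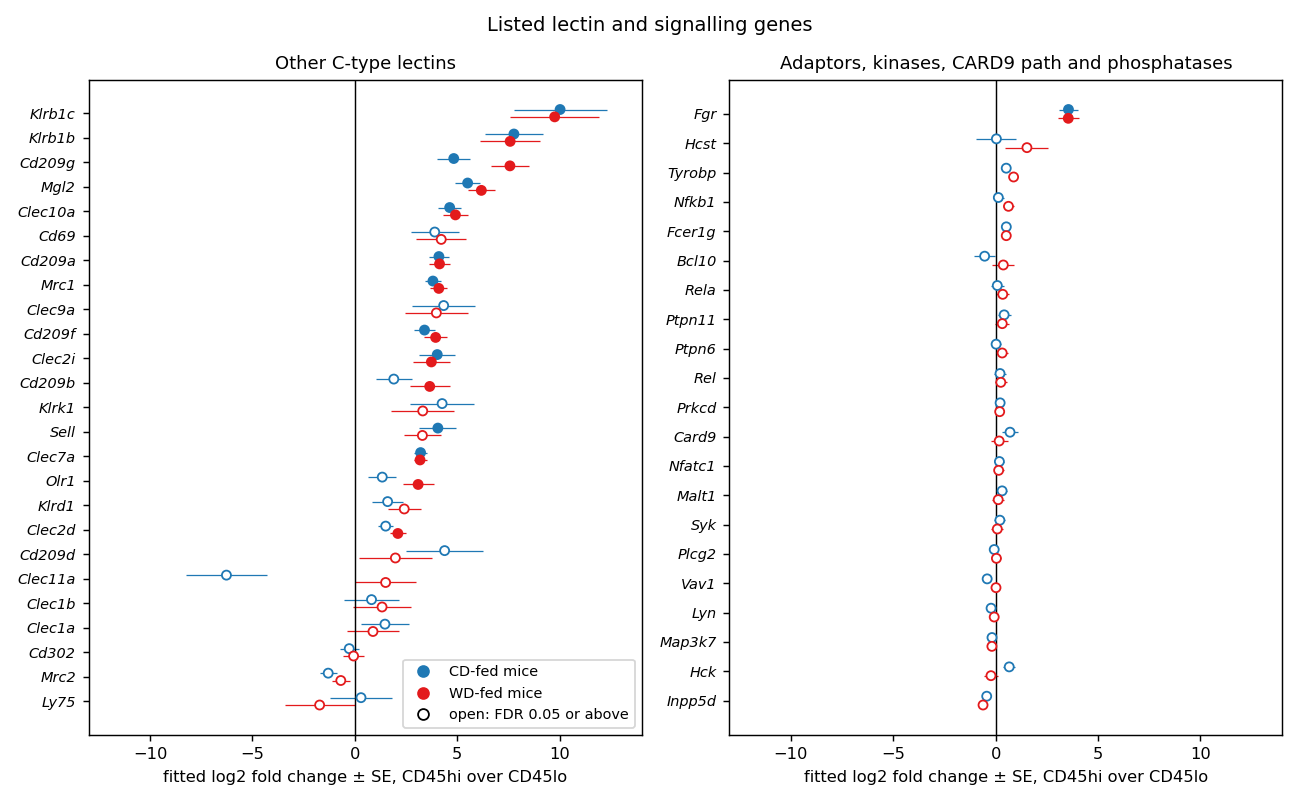
Fitted log2 fold change ± SE of CD45hi over CD45lo cells for the other C-type lectins (left) and for the adaptors, kinases, CARD9 path and phosphatases (right), in CD-fed and WD-fed mice. Filled points passed FDR 0.05. In CD-fed and WD-fed mice 11 and 13 of 25 lectins are filled, all to the right of 0, and *Fgr* is the filled signalling gene. Without the 4 lectins that passed the filter with the help of CD45hi libraries, 8 and 10 of 21 are filled. Of all genes 3.39% and 4.01% were called higher. Genes with CD45lo libraries at 0, such as *Klrb1c*, have points that depend on the prior count.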

How the data were processed

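The authors trimmed adapters and low-quality bases from paired-end reads with NGS QC Toolkit, aligned them with Bowtie2 through RSEM 1.2.12 to mm10, and deposited an expected count, a TPM value and an effective length per gene and library. Per the labels, bcl2fastq 2.18.0.12 made the reads. The deposited expected count carries no normalization and can hold fractions, and the deposited TPM has no scaling between libraries. The annotation release, the use of strand in counting, and which library ran on which of 2 named sequencers are not given in the sources used here, so a batch by sequencer was not tested.

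Expected counts were rounded, genes reaching 1 cpm in 2 or more libraries kept (14967 of 38924), scaled by TMM and fitted with edgeR 4.0.16 (R 4.3.3, the earlier quasi-likelihood form) with 4 groups over all 15 libraries. CD45hi and CD45lo cells were compared by glmTreat at 1.5-fold, diets and the interaction by glmQLFTest, with Benjamini-Hochberg FDR under 0.05 over all genes. SE is the size of the log2 fold change over the root of F. The filter, TMM and the quasi-likelihood fit follow the study's methods, which set the 1.5-fold limit on the fold change beside the FDR, here an alternative. glmTreat and the fit over 4 groups were chosen for this work.

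Groups and replicate numbers come from the sample titles. The study's data statement speaks of counts for every animal, but the labels number no animals, so it is not known which CD45hi and CD45lo libraries share one. Replicates of a group differed by a chi-square per degree of freedom of 20.6 to 135 over 21 pairs, and none were identical. Over all genes, samples with the same number in the titles shared little deviation (mean r 0.0156 over 7 pairs, lowest -0.0217). Such a mean over all genes cannot exclude pairing. Summed classical monocyte markers had the same order by number in both fractions of each diet, while those of patrolling monocytes did not. The main fit took no pairs, and a block by these numbers is among the alternatives.

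The 9 genes, the lists and the markers were chosen with earlier results of these data known. By rule, the 9 genes are named in every comparison, and from each list up to 4 called genes with the largest and 4 with the lowest log2 fold change in WD-fed mice, with *Clec7a*, *Mrc1*, *Fcer1g*, *Tyrobp*, *Syk*, *Card9*, *Ptpn6*, *Ptpn11* and *Inpp5d* in any case. Alternatives were DESeq2 1.42.0, limma-voom (limma 3.58.1), DESeq2 size factors, no filter, at least 1 cpm in 4 libraries, edgeR 4's form, unrounded counts, replicate blocks, a fold limit after glmQLFTest, the compared groups alone, and each library left out. Coordinates are GENCODE M21's, which lists 37607 of the identifiers, and promoter bases are RefSeq's. The code was tested on simulated counts. A planned search of protein motifs was not made, and some genes found by likeness to a receptor are not reported here. Flow cytometry, imaging and other mice of the study are not analysed here.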

Additional observations from a re-analysis of the deposited data

Results flagged for a closer look

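*Clec4b1* in CD CD45lo replicate 4 stood at 0.794 cpm while the other 3 libraries of the group were at 0 to 0.0615 cpm, a gap large against the range of the group. It was the only one of 26 groups of 4 libraries set apart in this way, where chance sets apart about 1 in 20. The value came from 14 counts, and the WD CD45lo libraries were all at 0. Without this library the other CD CD45lo libraries were at 1 count or fewer, and the log2 fold change of *Clec4b1* between the fractions in CD-fed mice, which then depends on the prior count, went from 3.96 to 6.31 and was still not called (FDR = 0.105).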

How the results depend on the processing

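The number of the 9 genes called was the same or 1 away under every alternative. In CD-fed mice it was 5 under each, and 4 to 5 with each library left out. In WD-fed mice it was 6 with *Clec4b1*, and 7 with the fold limit set after glmQLFTest, and 6 to 7 with each library left out. For the diets and the interaction it was 0 throughout. Of 431 log2 fold changes of the 9 genes under alternatives other than leaving out a library, 427 kept their direction and call, 1 gained a call and 3 changed sign. Those were *Clec4a2* between diets in CD45lo cells (0.012 with the block by titles) and, with limma-voom, the interaction of *Clec4a2* (0.00220) and of *Clec4d* (-0.94). Of 675 with a library left out, 648 were the same, 3 lost and 1 gained a call, and 23 changed sign, in estimates that were not called.

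The sign changes with a library left out were in these ranges of log2 fold change. *Clec4a2* ran from -0.031 to 0.46 for CD45hi over CD45lo in CD-fed mice, from -0.31 to 0.18 between diets in CD45hi and from -0.081 to 0.046 in CD45lo cells, and from -0.30 to 0.19 for the interaction. *Clec5a* ran from -0.62 to 0.15 for CD45hi over CD45lo in WD-fed mice, from -0.23 to 0.53 between diets in CD45hi and from -0.081 to 0.13 in CD45lo cells, and from -0.25 to 0.51 for the interaction. Between diets, *Clec4n* ran from -0.22 to 0.48 in CD45hi cells, and in CD45lo cells *Clec4a1* from -0.32 to 0.076, *Clec4a3* from -0.26 to 0.015 and *Clec12a* from -0.78 to 0.23. The interaction of *Clec4d* ran from -0.49 to 1.25. In CD-fed mice *Syk* ran from -0.019 to 0.34 and *Ptpn6* from -0.24 to 0.20, and in WD-fed mice *Syk* from -0.19 to 0.41, *Card9* from -0.24 to 0.50, *Ptpn6* from -0.075 to 0.49 and *Ptpn11* from -0.14 to 0.68.

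A replicate block by the numbers of the titles, or by numbers in the names of the deposited tables (mean r 0.0245 over 7 pairs), left 5 and 6 of the 9 genes called. Under the block by titles *Ptpn6* in CD-fed mice was at -0.033, and under the block by table numbers *Ptpn6* was at -0.044 there and *Syk* at -0.049 and *Card9* at -0.14 in WD-fed mice. With limma-voom *Ptpn6* was at -0.0084 in CD-fed mice. *Olr1* and *Cd209b* in WD-fed mice lost their calls under both blocks (FDR = 0.115 and 0.135 by titles, 0.0654 and 0.0949 by table numbers), *Klrb1c* there under the block by titles (FDR = 0.0620) and *Clec2d* under that by table numbers (FDR = 0.160). The cause was not tested.

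Counts over all genes moved more. Between the fractions 595 genes were called in CD-fed and 775 in WD-fed mice, against 1162 and 1335 with the fold limit set after glmQLFTest and 412 and 353 with the block by table numbers, and 412 to 705 and 513 to 920 with a library left out. For the diets in CD45hi cells 38 genes were called, against 1003 with DESeq2, 252 with the edgeR 4 form, 69 with at least 1 cpm in 4 libraries, 2 with the block by titles, 0 with the compared groups alone and 1 to 286 with a library left out. DESeq2 called 4 genes in CD45lo cells and 188 for the interaction, where limma-voom, the edgeR 4 form and the block by titles called 0 and leaving out a library gave 0 to 6. In CD-fed mice limma-voom called 404 genes higher and 138 lower, against 507 and 88, and the median of all genes, in log2 fold change, moved with it to -0.22 and -0.27 on the 2 diets.

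With 3 or 4 libraries a group, the SE of *Clec4b1* reached 2.2 in log2 for CD45hi over CD45lo and 2.41 for the interaction, and *Clec4d* was at or under 3 counts in 4 of 8 CD45lo libraries.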
